A study of Mus musculus with 8 samples.

Results

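Expression of 9 genes of osteoclast fusion and fate was examined in unstimulated bone marrow-derived macrophages (BMDMs) of WT and Gsdmd-/- mice. The genes were Acp5, Dcstamp, Ocstamp, Nfatc1, Tnfrsf11a, Mitf, Oscar, Calcr and Car2. They were taken by gene symbol from a table of read counts for 54532 genes, and each symbol matched 1 row. Of the 9 genes, 7 had enough reads to be tested among 12911 genes, Oscar had between 1 and 6 reads per library, and Calcr had none.

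BMDMs are macrophages grown from bone marrow cells, here for 6 days in M-CSF (20 ng/ml) and without further treatment. RNA-seq was performed on 4 WT and 4 Gsdmd-/- libraries. WT cells came from purchased female C57BL/6J mice of 6 to 8 weeks, whereas Gsdmd-/- mice, which lack gasdermin D, were a gift from another laboratory and were kept at the authors' animal facility. The age, sex and strain of the Gsdmd-/- donors are not given separately in the sources used here. Source colony and genotype therefore cannot be told apart. Whether the libraries stem from different mice is not given, so p-values measure the spread between these libraries, which may be technical. No RANKL was listed among the culture additions, and the labels call the cells bone marrow macrophages.

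Osteoclasts are bone-resorbing cells that arise from the same monocyte and macrophage precursors. M-CSF keeps the precursors alive, and RANKL, through its receptor RANK (the product of Tnfrsf11a), directs them to the osteoclast fate. Signals from RANK and from ITAM-bearing adaptors raise calcium, which activates NFATc1, the master transcription factor of the lineage. NFATc1 acts with MITF, PU.1 and AP-1 proteins on genes for cell fusion (Dcstamp, Ocstamp) and for resorption (Acp5, Ctsk, Car2).

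The libraries held 14935114 to 16794810 counts, and 3 counts, the limit that a count of 0 allows, was between 0.177 and 0.199 CPM (the counts of a gene scaled to a common library size). This limit covers counting error only. The targeted gene, Gsdmd, had a mean of 75.3 ± 14.1 CPM in WT BMDMs against 16.2 ± 1.56 CPM in Gsdmd-/- BMDMs (SD, n = 4 each), and every Gsdmd-/- library was below every WT library (log2 fold change -2.22, SE 0.139, edgeR adjusted p = 4.7e-05). On the first principal component, which held 43.6% of the variance, WT 2 and WT 3 were at 45.4 and 38.8, and the other 6 libraries were between -25.9 and -7.19. Results that rest on WT 2 and WT 3 are therefore given with and without them. These libraries were set aside because they stood apart in these same data, which leaves WT 1 and WT 4 against 4 Gsdmd-/- libraries. P-values from that setting describe these libraries only. All 9 macrophage markers were detected, with summed levels of 15345 to 23541 CPM in WT against 19417 to 23417 CPM in Gsdmd-/- libraries, and WT 2 and WT 3 had the lowest sums. Within this list, C1qa, a complement component of macrophages, was at 4.46 and 6.66 CPM in WT 2 and WT 3. It was at 44.9 and 77.6 CPM in WT 1 and WT 4. In Gsdmd-/- libraries C1qa was between 8.96 and 15.2 CPM, above WT 2 and WT 3 but below WT 1 and WT 4. Cd68 and Fcgr1 were also lowest in WT 2 and WT 3, whereas Adgre1, the gene for F4/80, and Mertk, a receptor for dying cells, were highest there. Mertk was at 250 and 212 CPM in WT 2 and WT 3 and at 101 to 142 CPM in the other 6 libraries.

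Fold changes are given as Gsdmd-/- over WT on the log2 scale. A gene is said to pass the study cutoff when the unadjusted p of edgeR's quasi-likelihood test was under 0.05 and the absolute log2 fold change at least 0.5. Adjusted p-values are Benjamini-Hochberg values over all 12911 genes. Of all genes tested, 4.83% passed the study cutoff, 3.28% with a lower and 1.54% with a higher level in Gsdmd-/- BMDMs. An adjusted p under 0.05 was found for 0.349% of them. Of the 7 tested osteoclast genes, 2 passed the study cutoff, Dcstamp and Acp5, both with a lower level in Gsdmd-/- BMDMs. None had an adjusted p under 0.05 by edgeR, limma voom or DESeq2. An unadjusted p under 0.05 was found for 2 of the 7 by edgeR, against 12% of all genes, and for 1 each by limma voom and DESeq2. Without WT 2 and WT 3 the 2 genes at the study cutoff were Dcstamp and Ocstamp, again both lower, against 6.19% of all genes in that setting. The median log2 fold change of the 7 genes was -0.16, against -0.0068 for all genes tested, and 6 of the 7 were below 0. In none of the 7 were the libraries of the genotypes apart without overlap, which was the case for 7.6% of all genes.

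**Figure D1:**
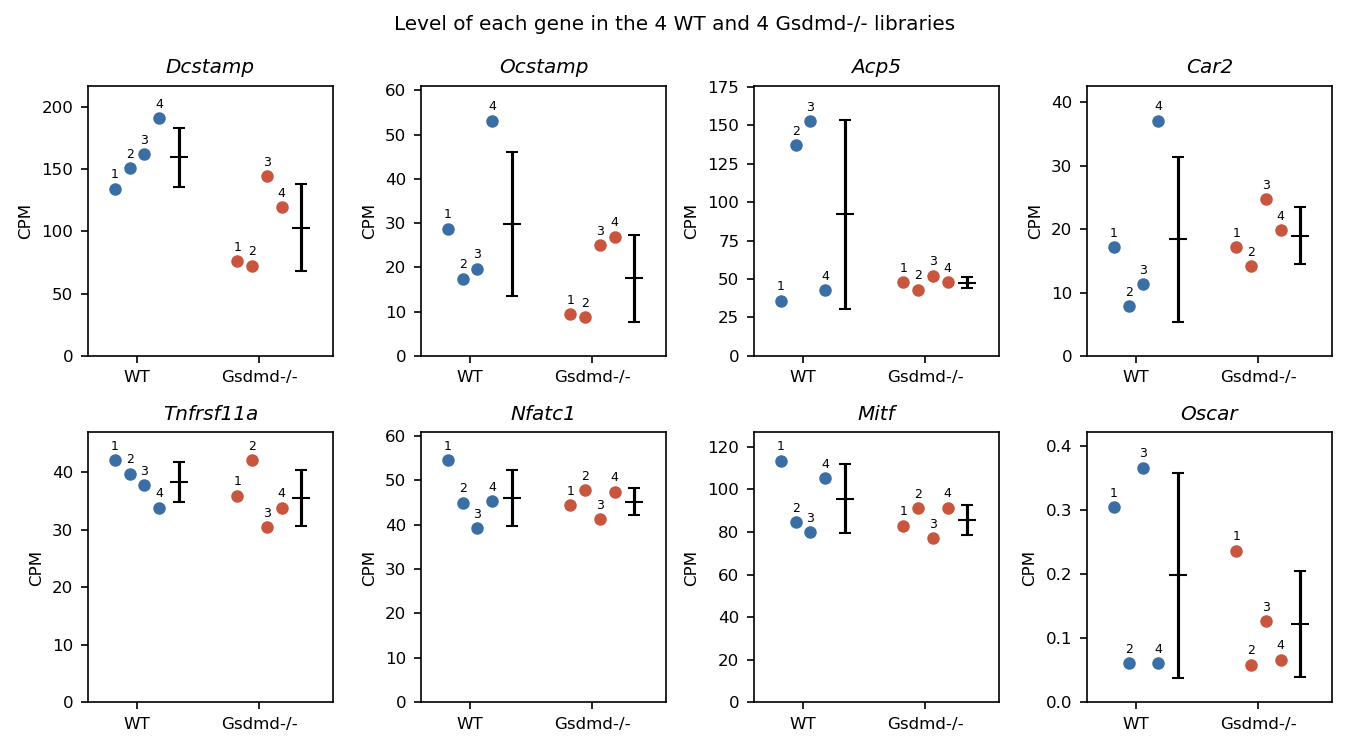
Level of 8 of the 9 genes in CPM (vertical axis, linear, from 0, a scale per gene) in each WT (blue) and Gsdmd-/- (red) library, numbered by replicate, with the mean and SD of each genotype in black. Acp5 was above 100 CPM in WT 2 and WT 3 only, Ocstamp and Car2 were highest in WT 4, and Calcr, not drawn, had 0 counts in all 8 libraries.

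RefSeq start-site sequences were used for 5 of the 9 genes (Acp5, Oscar, Mitf, Tnfrsf11a and Calcr), in 10 windows of GRCm38.p6. The 250 bases before each start were searched on both strands for CATGTG, the E-box form bound by MITF and related factors, for GGAAA, the core bound by NFAT proteins, and for TGANTCA, the AP-1 site. The windows with the MITF-type letters are printed because Mitf is itself among the genes examined and because their genes, Acp5 and Oscar, differ widely in level. For Acp5, 1 of 3 windows held the letters, at chr9:22130599-22130848 on the minus strand, with the first base at -90 from the start. This window lies inside the annotated gene, and 10 of its bases overlap an annotated exon. The Oscar window, chr7:3616158-3616407 on the minus strand, held them at -6. The sequences run 5′ to 3′, and capitals mark the E-box letters as read on the strand shown.
Acp5: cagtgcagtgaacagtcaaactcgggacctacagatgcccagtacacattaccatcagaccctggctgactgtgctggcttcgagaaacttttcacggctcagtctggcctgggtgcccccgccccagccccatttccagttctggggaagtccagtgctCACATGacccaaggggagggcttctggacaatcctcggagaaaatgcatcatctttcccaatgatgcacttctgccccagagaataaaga
Oscar: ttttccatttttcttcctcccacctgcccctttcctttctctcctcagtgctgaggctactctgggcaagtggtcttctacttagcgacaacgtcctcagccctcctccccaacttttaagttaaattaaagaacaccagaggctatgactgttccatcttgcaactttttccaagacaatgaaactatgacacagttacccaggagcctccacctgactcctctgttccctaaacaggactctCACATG
CATGTG or its reverse CACATG was found in 12.3% of 32851 RefSeq windows of this length. The NFAT core occurred in 55.6% of all windows, and was present at 2 positions of the Acp5 window shown and at 3 positions of the Oscar window. TGANTCA, found in 6.75% of all windows, was in none of the 10. A match of letters does not show that a factor binds there.

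Levels of different genes were compared per kb of merged exon length, over all 8 libraries. Dcstamp had the highest mean of the 9, at 49.2 ± 15.3 CPM per kb (SD, n = 8), followed by Acp5 at 34.4 CPM per kb. The ranges of these 2 genes over the libraries overlapped, from 27.1 to 71.6 and from 17.6 to 75.2 CPM per kb. In WT 2 and WT 3 the order was reversed, with Acp5 at 67.6 and 75.2 CPM per kb and Dcstamp at 56.5 and 60.8 CPM per kb. Mitf followed with 12.4 to 18.3 CPM per kb, which overlapped the lower end of the Acp5 range. Car2 (7.71 ± 3.74 CPM per kb), Ocstamp (6.47 ± 3.86), Tnfrsf11a (6.17 ± 0.701) and Nfatc1 (6.10 ± 0.617) lay within each other's spread. Oscar was at 0.0868 CPM per kb and Calcr at 0. Of 4 other osteoclast genes, 2 were higher and 2 lower than Dcstamp on this scale. Atp6v0d2, a subunit of the vacuolar proton pump that also acts in cell fusion, was at 514 CPM per kb, and Ctsk, the collagen-degrading protease cathepsin K, at 210 CPM per kb, while Itgb3 was at 24.3 and Mmp9 at 0.223 CPM per kb.

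The fusion genes encode multi-pass membrane proteins that mononuclear precursors need to form multinucleated osteoclasts and giant cells. Dcstamp (chr15:39745930-39760938, plus strand, GRCm38) was at 134, 150, 162 and 191 CPM in WT 1 to WT 4. In Gsdmd-/- 1 to Gsdmd-/- 4 it was at 76.2, 72.2, 144 and 119 CPM. Gsdmd-/- 3 lay within the WT range and the other Gsdmd-/- libraries lay below it. WT BMDMs averaged 159 ± 23.8 CPM, against 103 ± 34.7 CPM in Gsdmd-/- BMDMs (SD, n = 4 each). This is a log2 fold change of -0.63 (SE 0.214), which passed the study cutoff but not adjustment (edgeR adjusted p = 0.292). Without WT 2 and WT 3 the log2 fold change was -0.66, and Dcstamp again passed the study cutoff. The call was lost without Gsdmd-/- 2, where the log2 fold change was -0.50 and short of the cutoff.

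Ocstamp (chr2:165393760-165400405, minus strand), whose product acts beside DC-STAMP in fusion, varied more than any other tested gene of the 9, by 6.12 times between the highest and the lowest library. It was at 28.8, 17.5, 19.7 and 53.2 CPM in WT 1 to WT 4 and at 9.42, 8.69, 25.1 and 26.9 CPM in Gsdmd-/- 1 to Gsdmd-/- 4. WT 4 was the highest library, and Gsdmd-/- 1 and Gsdmd-/- 2 were below all the others. The means were 29.8 ± 16.3 CPM and 17.5 ± 9.81 CPM (SD, n = 4 each). The log2 fold change of -0.77 (SE 0.442) did not pass the study cutoff (edgeR adjusted p = 0.541). Without WT 2 and WT 3 it was -1.23 and passed the cutoff (edgeR adjusted p = 0.244). Without WT 4 it was -0.33.

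The Gsdmd-/- libraries were uneven in both fusion genes. Dcstamp averaged 74.2 CPM in Gsdmd-/- 1 and Gsdmd-/- 2 and 132 CPM in Gsdmd-/- 3 and Gsdmd-/- 4, and Ocstamp averaged 9.06 and 26.0 CPM in the same pairs. Among WT libraries, WT 4 was the highest for both genes. WT 2 and WT 3 were the lowest WT libraries for Ocstamp but not for Dcstamp. Likeness was measured by the root mean square difference of log2 CPM, each gene centred on its own mean over the 8 libraries. Of the other 6 tested genes, Dcstamp was most like Ocstamp, at 0.464, against a median of 0.828 for all genes tested. From the side of Dcstamp the same 0.464 lay near its median of 0.518, and Mitf was at 0.478. The genes of the whole table most like Dcstamp were Tspan32, a tetraspanin (0.140), and Stap2, a signaling adaptor (0.152), against a median of 0.518. Tspan32 was at 17.5 to 23.4 CPM in WT against 10.3 to 15.7 CPM in Gsdmd-/- libraries. Those most like Ocstamp were Tnip3 (0.319), a binding partner of A20, and Mt3 (0.333), a metallothionein. Tnip3 was at 61.8 CPM in WT 4 and at 15.5 CPM in Gsdmd-/- 2, the highest and lowest library for Ocstamp too. These likenesses are over 8 libraries and describe them only.

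**Figure D2:**
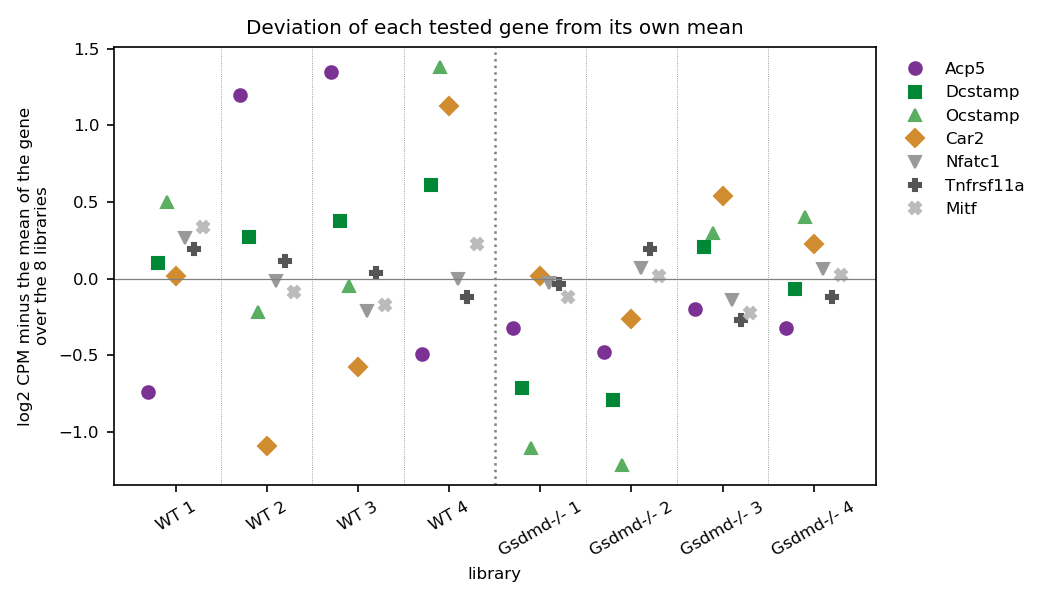
Log2 CPM of the 7 tested genes in each library minus the mean of that gene over the 8 libraries (vertical axis), with WT libraries left and Gsdmd-/- libraries right of the thick dotted line. Acp5 was high and Car2 low in WT 2 and WT 3, Ocstamp and Dcstamp were both low in Gsdmd-/- 1 and Gsdmd-/- 2, and Nfatc1, Tnfrsf11a and Mitf stayed near their means.

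Acp5 (chr9:22126727-22135711, minus strand) encodes tartrate-resistant acid phosphatase (TRAP), the enzyme whose stain is used to identify osteoclasts and which some macrophages also make. It was at 35.8, 137, 153 and 42.6 CPM in WT 1 to WT 4 and at 47.8, 43.0, 52.2 and 47.8 CPM in Gsdmd-/- 1 to Gsdmd-/- 4. WT 2 and WT 3 stood above the other 6 libraries, which all lay between 35.8 and 52.2 CPM. The means were 92.0 ± 61.4 CPM in WT against 47.7 ± 3.76 CPM in Gsdmd-/- BMDMs (SD, n = 4 each). The log2 fold change of -0.95 (SE 0.418) passed the study cutoff but not adjustment (edgeR adjusted p = 0.401). Without WT 2 and WT 3 the direction turned, to a log2 fold change of 0.28 (edgeR adjusted p = 0.324). The lower mean in Gsdmd-/- BMDMs thus rested on these 2 WT libraries, whose mean of 145 CPM was 3.70 times the 39.2 CPM of WT 1 and WT 4. Acp5 also failed the cutoff when WT 2, WT 3 or any 1 Gsdmd-/- library was left out. With all 8 libraries it failed by limma voom (log2 fold change -0.66, limma voom unadjusted p = 0.162) and by DESeq2 (-0.95, DESeq2 unadjusted p = 0.0665).

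The genes with the pattern most like Acp5 were Cib2 (0.104), which encodes a calcium- and integrin-binding protein, and Gm11613 (0.141), against a median of 0.778. Cib2 was at 17.2 and 19.2 CPM in WT 2 and WT 3 and between 4.02 and 6.15 CPM in the other 6 libraries. Some markers of macrophages, named above, and Kit differed in the same libraries. The split of C1qa was not that of Acp5, since C1qa was also lower in Gsdmd-/- libraries (8.96 to 15.2 CPM) than in WT 1 and WT 4. Kit, the stem cell factor receptor, was at 11.4 and 10.3 CPM in WT 2 and WT 3 and at 46.0 to 71.0 CPM in the others. Kit made up most of the summed level of 6 mast cell and basophil markers, all with counts, which was 16.3 to 80.6 CPM in WT against 53.5 to 75.1 CPM in Gsdmd-/- libraries. The part of these differences in the Acp5 result was not tested. In bulk RNA, fewer cells of a type and less RNA per cell cannot be told apart. The exons of Acp5 overlap those of 6530413G14Rik on the opposite strand, which had 1 count in all 8 libraries. Of the other acid phosphatases, 4 were tested and 0 passed the study cutoff. Acpp, the prostatic form, was at 110 ± 10.9 CPM in WT against 86.0 ± 6.01 CPM in Gsdmd-/- BMDMs (log2 fold change -0.35, edgeR adjusted p = 0.178).

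Car2 (chr3:14886273-14900770, plus strand) encodes carbonic anhydrase II, which supplies the protons that osteoclasts secrete onto bone. It was at 17.2, 7.88, 11.4 and 37.1 CPM in WT 1 to WT 4 and at 17.2, 14.1, 24.7 and 19.8 CPM in Gsdmd-/- 1 to Gsdmd-/- 4. WT libraries held both the highest and the lowest values, and all Gsdmd-/- libraries lay between them. The means were 18.4 ± 13.1 and 19.0 ± 4.49 CPM (SD, n = 4 each), and the log2 fold change was 0.04 (SE 0.404, edgeR adjusted p = 0.979). Its direction depended on the libraries used. It was -0.52 without WT 2 and WT 3 and 0.65 without WT 4, and the latter passed the study cutoff. The genes most like Car2 were Ch25h (0.226), cholesterol 25-hydroxylase, and Tpm2 (0.237), a tropomyosin, against a median of 0.665. Ch25h was at 5.50 and 5.74 CPM in WT 2 and WT 3 and was highest in WT 4. Car2 is also abundant in red cell precursors. Of 11 erythroid markers, 6 had counts, with sums of 0.365 to 0.855 CPM in WT against 0.178 to 0.651 CPM in Gsdmd-/- libraries. Hbb-bs, Hba-a1, Hba-a2, Slc4a1 and Car1 were at 0 in all 8 libraries. Of 15 other carbonic anhydrase genes, 4 were tested and 0 passed the cutoff. Car13, a cytosolic form, was at 35.4 to 42.3 CPM in WT against 47.6 to 51.7 CPM in Gsdmd-/- libraries (log2 fold change 0.34, edgeR adjusted p = 0.180).

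The receptor and the transcription factors of the osteoclast fate were steadier, and none passed the study cutoff. Tnfrsf11a (chr1:105780718-105847981, plus strand) was at 42.1, 39.7, 37.7 and 33.8 CPM in WT, and at 35.9, 42.1, 30.4 and 33.8 CPM in Gsdmd-/- libraries. Nfatc1 (chr18:80606205-80713071, minus strand) was at 54.4, 44.9, 39.1 and 45.2 CPM in WT, and 44.4, 47.7, 41.2 and 47.4 CPM in Gsdmd-/- libraries. Mitf (chr6:97807052-98021349, plus strand), a basic helix-loop-helix factor of melanocytes, mast cells and osteoclasts, was at 113, 84.5, 79.8 and 105 CPM in WT, and at 82.9, 91.1, 77.1 and 91.3 CPM in Gsdmd-/- libraries. For all 3 genes the ranges of the genotypes overlapped, and the highest library was at most 1.47 times the lowest. The log2 fold change was -0.11 (SE 0.115, edgeR adjusted p = 0.759) for Tnfrsf11a and -0.02 (SE 0.108, adjusted p = 0.951) for Nfatc1. For Mitf it was -0.16 (SE 0.122, edgeR adjusted p = 0.657). WT 1 and WT 4 were the highest Mitf libraries, and without WT 2 and WT 3 the log2 fold change was -0.36 (edgeR adjusted p = 0.156).

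Oscar (chr7:3609813-3616157, minus strand) encodes an osteoclast receptor that signals through an ITAM adaptor, and Calcr (chr6:3685680-3764714, minus strand) encodes the calcitonin receptor, a marker of mature osteoclasts. Oscar had 5, 1, 6 and 1 counts in WT 1 to WT 4 and 4, 1, 2 and 1 counts in Gsdmd-/- 1 to Gsdmd-/- 4. The sums were 13 and 8 counts, and an exact permutation test of the CPM gave p = 0.4 (two-sided, smallest possible p = 0.0286). Calcr had 0 counts in all 8 libraries. By counting error alone, a count of 0 allows a level of up to 0.177 to 0.199 CPM per library, so a lower level is not excluded. Of 4 partners and relatives of the calcitonin receptor, Calcrl and Ramp1 were tested. Ramp1, a receptor activity-modifying protein, was at 19.5 ± 3.33 CPM in WT against 13.8 ± 2.38 CPM in Gsdmd-/- BMDMs (log2 fold change -0.50, edgeR adjusted p = 0.260) and passed the study cutoff. Calcrl, which forms the CGRP receptor with Ramp1, had means of 11.8 CPM in both genotypes.

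Genes that complete the osteoclast programme outside the 9 were compared beside them. Ctsk and Itgb3 passed the study cutoff with a higher level in Gsdmd-/- BMDMs. Ctsk was at 206 to 301 CPM in WT against 327 to 470 CPM in Gsdmd-/- libraries (log2 fold change 0.65, SE 0.142, edgeR adjusted p = 0.113). Itgb3, the beta chain of the vitronectin receptor, was at 68.1 to 139 CPM in WT against 160 to 202 CPM in Gsdmd-/- libraries (log2 fold change 0.75, SE 0.194, edgeR adjusted p = 0.174). For both genes every Gsdmd-/- library lay above every WT library. Mmp9, a gelatinase, was near the limit of detection, with 31 counts over the WT and 71 over the Gsdmd-/- libraries (log2 fold change 1.21, SE 0.385, edgeR adjusted p = 0.264). It passed the filter on low counts only through the Gsdmd-/- libraries, at 0.825 to 1.53 CPM, since 3 of 4 WT libraries were at 0.244 to 0.487 CPM, so its call is given as a description. Atp6v0d2 was at 1197 to 1331 CPM in WT against 1476 to 1567 CPM in Gsdmd-/- libraries, again without overlap. Its log2 fold change of 0.27 (SE 0.0793, edgeR adjusted p = 0.221) was below the size that the cutoff asks for. By DESeq2 the adjusted p was 0.0028 for Ctsk, 0.0171 for Itgb3, 0.0087 for Atp6v0d2 and 0.195 for Mmp9, in a test that called 292 genes against 45 by edgeR. WT 2 and WT 3 were the highest WT libraries for Itgb3, at 139 and 125 CPM. Without them, Ctsk and Itgb3 again passed the study cutoff, and Itgb3 had a log2 fold change of 1.13 (edgeR adjusted p = 0.0121). Mmp9 then had a log2 fold change of 0.78 and no longer passed (edgeR adjusted p = 0.487). Of the 17 resorption genes tested, 9 were above and 8 below 0. Itgav, the alpha chain of the vitronectin receptor, was among those below 0 (log2 fold change -0.47, edgeR adjusted p = 0.428). Without WT 2 and WT 3 the log2 fold change of Itgav was -0.01.

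**Figure D3:**
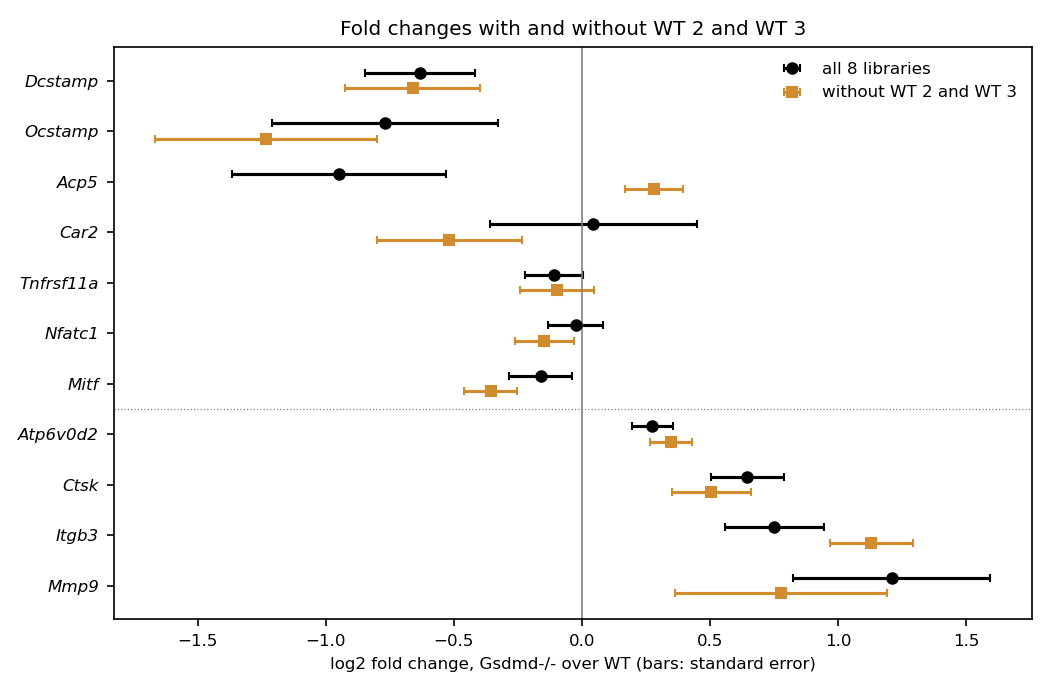
Log2 fold change of Gsdmd-/- over WT (horizontal axis) with its standard error for the 7 tested genes and, under the dotted line, 4 other osteoclast genes, from all 8 libraries (black circles) and without WT 2 and WT 3 (orange squares). Acp5 moved from -0.95 to 0.28 and Car2 from 0.04 to -0.52, whereas Dcstamp stayed at -0.63 and -0.66.

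Around these genes, 10 gene lists of the pathway were described by how many members passed the study cutoff, for comparison with the 1.54% (higher) and 3.28% (lower) of all genes. In the RANK signalling list, 25 of 27 genes were tested, 0 were higher and 2 were lower (median log2 fold change -0.0088). These were Traf2, an adaptor of TNF receptors, with 13.8 to 17.5 CPM in WT against 7.98 to 12.4 CPM in Gsdmd-/- libraries, and Tnfaip3, which encodes A20, an inhibitor of NF-kB. Tnfaip3 was at 76.1 and 75.2 CPM in WT 1 and WT 4, at 42.6 and 41.2 CPM in WT 2 and WT 3, and between 39.2 and 40.9 CPM in Gsdmd-/- libraries. Its log2 fold change was -0.55 (edgeR adjusted p = 0.319), and -0.92 without WT 2 and WT 3 (edgeR adjusted p = 0.0018). Tnfsf11, the gene for RANKL, had 1 count over all libraries and Tnfrsf11b, for its decoy receptor, had 29 counts, so neither was tested.

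In the ITAM costimulation list, which also holds the inhibitory receptors Pirb and Lilrb4a, all 15 genes were tested and 0 passed (median -0.04). The adaptor Tyrobp averaged 878 CPM in WT BMDMs against 852 CPM in Gsdmd-/- BMDMs, and its partner Trem2 at 588 and 572 CPM. Of 22 calcium and calcineurin genes tested from 24, 0 were higher and 2 were lower (median -0.02). Nfatc2, a relative of Nfatc1, had a log2 fold change of -0.52 (edgeR adjusted p = 0.265), and Itpr3, an IP3 receptor, one of -0.56 (edgeR adjusted p = 0.272).

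Among 15 other osteoclast transcription factors, all tested, 3 were higher and 2 lower (median -0.05). Fos, the AP-1 subunit that osteoclast formation needs, was at 48.3, 56.9, 60.2 and 42.8 CPM in WT, and at 134, 119, 105 and 98.5 CPM in Gsdmd-/- libraries. All Gsdmd-/- libraries were above all WT libraries, with a log2 fold change of 1.13 (SE 0.133, edgeR adjusted p = 0.0059). Myc rose from 36.5 ± 2.27 to 52.0 ± 2.85 CPM (log2 fold change 0.51, edgeR adjusted p = 0.0361). Both had an adjusted p under 0.05 without WT 2 and WT 3 too. Junb was higher at the study cutoff (log2 fold change 0.53, edgeR adjusted p = 0.0751), while Jun and Fosl1, other AP-1 subunits, were lower (log2 fold changes -0.58 and -0.65, edgeR adjusted p = 0.134 and 0.399). Jun was at 235 and 246 CPM in WT 2 and WT 3 and at 157 and 174 CPM in WT 1 and WT 4, and without WT 2 and WT 3 its log2 fold change was -0.29 and did not pass.

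Of the repressors of the osteoclast fate, 7 of 8 were tested, 1 was higher and 1 lower (median 0.04). Bcl6, a repressor of Nfatc1, Dcstamp and Ctsk, was at 6.02 to 12.0 CPM in WT against 3.93 to 5.26 CPM in Gsdmd-/- libraries (log2 fold change -1.01, edgeR adjusted p = 0.0861). Id1, a helix-loop-helix inhibitor, was at 37.3 to 42.3 CPM in WT against 49.8 to 78.7 CPM in Gsdmd-/- libraries (log2 fold change 0.60, edgeR adjusted p = 0.108). Irf8, a repressor that is abundant in macrophages, had a log2 fold change of 0.04 and did not pass. In the cell fusion list, 18 of 19 genes were tested, 0 were higher and 2 were lower (median -0.08). Myo10, a myosin of filopodia, had a log2 fold change of -0.55 (edgeR adjusted p = 0.132), and the tetraspanin gene Cd81 one of -0.51 (edgeR adjusted p = 0.358). Of 17 resorption genes, all tested, 3 were higher at the cutoff, namely Ctsk, Itgb3 and Mmp9, the last with the limit given above, and 0 were lower (median 0.0098). The genes for the proton pump, the chloride channel Clcn7 and its partner Ostm1 did not pass.

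Without WT 2 and WT 3, 3.05% of all genes were higher and 3.15% lower at the cutoff. In this setting 4 genes of the RANK signalling list were lower at the cutoff, with the NF-kB subunit gene Relb (-0.65, and -0.33 with all libraries) and the NF-kB inhibitor gene Nfkbia (-0.57, and -0.20 with all libraries) beside Traf2 and Tnfaip3. Of the ITAM list, Siglec15, a receptor of the osteoclast surface, was then at the cutoff, but WT 4 was at the limit of 3 counts (0.183 CPM) and WT 1 at 0.487 CPM, so no fold change is given. Of the calcium list Nfatc2 remained at the cutoff (-0.73), and of the transcription factors Fos, Myc and Fosl1. Itpr3 (-0.33) and Junb (0.44) did not pass in this setting. Of the repressors, Bcl6 and Rbpj, the DNA-binding factor of Notch signaling, were lower and Id1 and Id3 higher (Id3 0.50, and 0.26 with all libraries). Rbpj had a log2 fold change of -0.68 (edgeR adjusted p = 0.0199), but of -0.22 with all libraries (edgeR adjusted p = 0.784), and WT 1 and WT 4 lay above and WT 2 and WT 3 below every Gsdmd-/- library. In the fusion list Cdh1, the gene for E-cadherin, was the gene at the cutoff (-0.76, edgeR adjusted p = 0.0416, and -0.27 with all libraries, adjusted p = 0.769), while Myo10 (-0.45) and Cd81 (-0.18) were not. In the resorption list Ctsk and Itgb3 were higher, and Mmp14, a membrane-bound metalloproteinase, was lower (-0.62, edgeR adjusted p = 0.0844, and -0.14 with all libraries, adjusted p = 0.892). Relb, Nfkbia, Rbpj, Id3, Cdh1 and Mmp14 did not pass the cutoff with all 8 libraries.

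**Figure D4:**
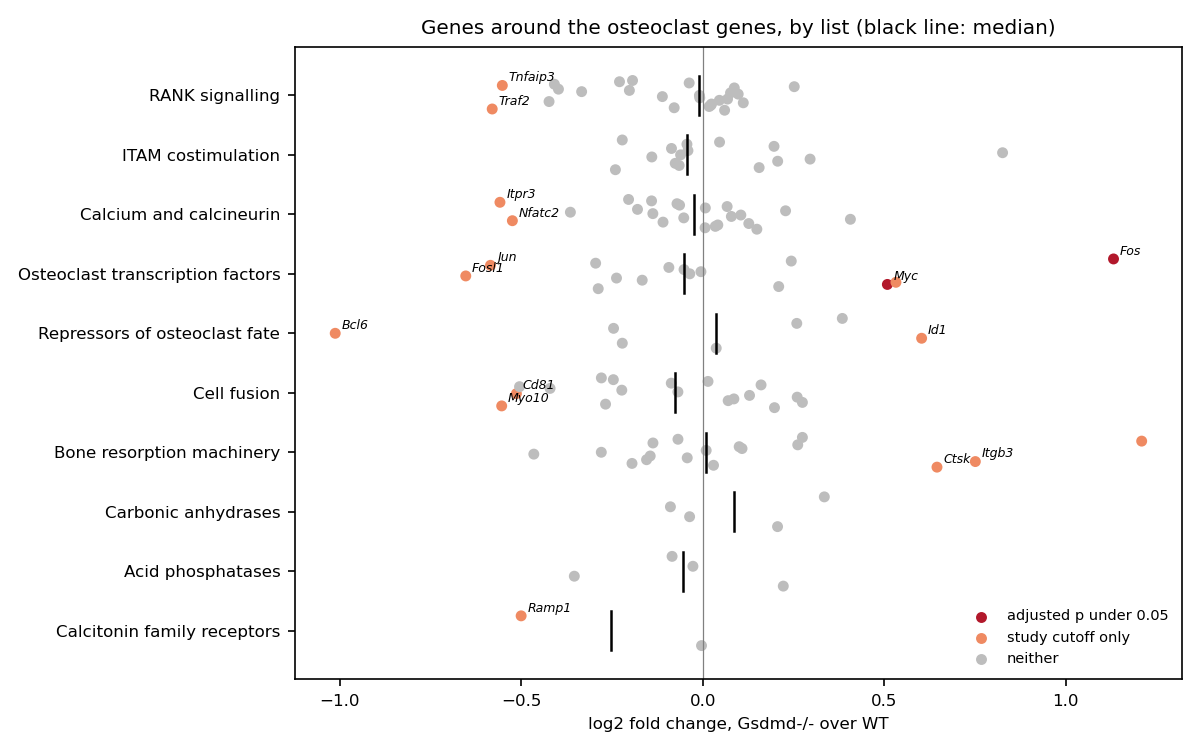
Log2 fold change of Gsdmd-/- over WT (horizontal axis) of the tested genes of 10 lists (rows), with a dot per gene, a black line at the median of each list, and colour for the calls. Fos and Myc were the genes of these lists with an adjusted p under 0.05, and the medians of 9 lists lay between -0.08 and 0.09, whereas that of the 2 calcitonin family genes was -0.25.

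Of 49 markers of other cell types, 10 had enough reads to be tested and 0 of these passed the study cutoff. None of the 9 macrophage markers passed it. Calls for all these markers are given with all 8 libraries only. No erythroid or lymphoid marker could be tested. The summed level was 21.2 to 26.9 CPM in WT against 15.2 to 20.2 CPM in Gsdmd-/- libraries for 11 stromal and osteoblast markers, of which Runx2 gave most and Bglap and Ibsp were at 0. It was 7.15 to 10.9 and 9.20 to 10.5 CPM for 9 neutrophil markers, and 3.91 to 7.36 and 3.08 to 4.12 CPM for 7 dendritic cell markers. For 5 lymphoid markers it was at most 0.487 CPM.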

How the data were processed

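The authors isolated RNA with Trizol, had TruSeq libraries of total RNA sequenced by a company, and deposited 1 table of raw read counts per gene for 4 WT and 4 Gsdmd-/- libraries. The submitters' processing notes name mm10. The aligner, the counting tool, strand use and the annotation are not given in the sources used here. Identifiers of 54495 of 54532 genes were found in GENCODE M21, which gave positions and exon lengths. Counts were filtered with filterByExpr, scaled by TMM and compared by the two-sided quasi-likelihood test of edgeR 4.0.16 (R 4.3.3) with genotype as the only term, and checked on simulated data. Alternatives used limma voom 3.58.1, DESeq2 1.42.0, other scalings and filters, and fewer libraries. CPM were scaled by these factors, with a prior count of 2 on the log2 scale. Replicates of a genotype differed by more than sampling noise. Level likeness was computed for genes with an SD of log2 CPM of at least 0.3.

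The 9 genes, the gene lists and the tests were chosen with earlier results of these data known. Named genes were the 9, Gsdmd, Ctsk, Itgb3, Atp6v0d2 and Mmp9, in each list those with an adjusted p under 0.05 and the 2 with the lowest p in each direction at the study cutoff, and the 2 most alike in pattern. Other genes named (Junb, Relb, Nfkbia, Siglec15, Rbpj, Id3, Cdh1, Mmp14, Itgav, Tyrobp, Trem2, Pirb, Lilrb4a, Irf8, Acpp, Car13, Calcrl, Tnfsf11, Tnfrsf11b, Clcn7, Ostm1 and marker genes) were chosen after their values were seen.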

Additional observations from a re-analysis of the deposited data

How the results depend on the processing

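Over 16 alternatives, 105 of 112 fold changes of the 7 tested genes kept their direction and none reached an adjusted p under 0.05 (lowest 0.107). Acp5 reversed to 0.28 without WT 2 and WT 3 and Car2 to -0.52. Leaving out 1 library each gave log2 fold changes of -0.21 to 0.65 for Car2 and -0.0936 to 0.0677 for Nfatc1, and each included reversals. For Acp5 this range was -1.22 to -0.59, for Dcstamp -0.84 to -0.50, for Ocstamp -1.05 to -0.33, for Mitf -0.24 to -0.07 and for Tnfrsf11a -0.20 to -0.04. Of the 7 genes, 1 passed the study cutoff by limma voom and 1 by DESeq2, Dcstamp in both. Without a filter 3 passed (Ocstamp beside Dcstamp and Acp5). With all 8 libraries and the main filter, 0 passed when the fold change had to reach 1 on the log2 scale. Between 0 (without Gsdmd-/- 2) and 3 (without WT 4) passed with 1 library left out. The cause was not tested.

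Over all genes, 623 passed the study cutoff, 1204 without a filter, 199 with this larger fold change, and 469 to 1022 with 1 library left out. An adjusted p under 0.05 was found for 45 genes, for 292 by DESeq2, 109 without a filter, 161 without WT 2 and WT 3, and 14 to 84 with 1 library left out. In their deviations from the mean of the genotype, same-numbered libraries had an r between -0.201 and 0.182. With 4 libraries per genotype this cannot settle whether the replicate numbers pair the libraries. With the replicate number as a block 25 genes had an adjusted p under 0.05, and 2 of the 7 genes, Dcstamp and Ocstamp, passed the study cutoff. The log2 fold change was then -0.68 for Dcstamp (SE 0.144, edgeR adjusted p = 0.178) and -0.81 for Ocstamp (SE 0.276, edgeR adjusted p = 0.425). Depth limits Oscar, Calcr, Mmp9 and Siglec15.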
